A study of Mus musculus with 12 samples.

Results

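Cortical layer identity genes are transcription factors, and 1 co-repressor, that mark the layers in which the pyramidal neurons of the cerebral cortex lie. The 9 genes Cux1, Cux2, Rorb, Etv1, Bcl11b, Fezf2, Foxp2, Tle4 and Tbr1 were taken by their symbols from the 17202 genes with a normalized count in the cortex of 12 mice. Each symbol matched a single gene. The mice fell into 4 groups of 3, of which VEH-WT and VEH-CD drank vehicle and VERCUR-WT and VERCUR-CD drank curcumin together with verapamil, a calcium channel blocker. WT is wild type. CD is the complete deletion model of Williams–Beuren syndrome, with a heterozygous deletion from Gtf2i to Fkbp6 on chromosome 5. The labels give a C57Bl6 strain, curcumin at 60 and verapamil at 10 mg/kg/day, both for 1 month from 8 weeks of age, tissue taken at 16 weeks, and call the vehicle mice untreated. The methods of the study give a lower dose of verapamil, a younger age at the end, vehicle of water with DMSO, and frontal cortex of male mice. In these methods CD mice had been crossed with a Thy1-YFP line, which labels pyramidal neurons, so the transgene may be shared by all 4 groups. With 3 mice per group, the p value of a fold change sets the difference against the spread between mice, pooled over the 4 groups.

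The layers of the cortex are built in sequence, and each holds pyramidal neurons that send their axons to characteristic targets. Neurons of the upper layers project within the cortex and to the opposite hemisphere, layer 4 receives input from the thalamus, layer 5 projects to the striatum, brainstem and spinal cord, and layer 6 projects to the thalamus. The genes described here direct these choices during development, many by repressing the program of a neighbouring layer, and continue to be expressed in the adult cortex. The comparisons asked whether the deletion, or the co-treatment, altered their levels in adult mice.

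All 9 genes were well measured, and none was a differentially expressed gene (DEG) in any of the 8 comparisons. DEGs were genes over 25% higher or over 25% lower whose p in limma, after Benjamini-Hochberg adjustment over the 17111 genes tested, was under 0.05. By this rule 0.257% of all genes tested were DEGs in VEH-CD against VEH-WT, 0.146% in VERCUR-CD against VERCUR-WT, 0.199% in VERCUR-CD against VEH-WT and 0.321% in CD against WT over both treatments. It gave 0% in both comparisons of co-treated with vehicle mice of 1 genotype, in the comparison over both genotypes and in the interaction of genotype and treatment, where an adjusted p under 0.05 was enough. At an unadjusted p under 0.05, 1 of the 9 genes passed in VEH-CD against VEH-WT, 1 in VERCUR-CD against VERCUR-WT, 1 in VERCUR-CD against VEH-CD and 2 in the interaction, and none in the other 4 comparisons. The shares of all genes tested that passed this lenient threshold were 11.8%, 4.10%, 3.54% and 6.05%, and 5.22% in VERCUR-WT against VEH-WT, 8.68% in VERCUR-CD against VEH-WT, 9.64% in CD against WT and 2.96% in VERCUR against VEH.

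Each mouse had between 40300000 and 56500000 reads counted, and its normalized counts summed to between 47426249 and 50772354. The median level of 19 deleted genes, relative to VEH-WT, was between 0.959 and 1.04 in the 6 WT mice and between 0.468 and 0.530 in the 6 CD mice, so that each mouse carried the dose of its labelled genotype. Slc17a7, the vesicular glutamate transporter of cortical pyramidal neurons, was between 92108 and 106911 normalized counts in every mouse. Striatal marker genes were also present in every mouse, at very different levels that are given below beside the layer genes. In bulk tissue, fewer cells of a type and less RNA per cell cannot be told apart.

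Cux1 and Cux2 lie on chromosome 5, as does the deletion. In GRCm38 (GENCODE M21 annotation, as for all positions here) Cux1 extends from 136248135 to 136567490 on the minus strand, 0.898 Mb beyond the Fkbp6 end of the deletion, with 26 protein-coding genes between. Cux2 extends from 121856366 to 122050102 on the minus strand, 12.2 Mb beyond the Gtf2i end. The other 7 genes are on other chromosomes. Rorb (18930605 to 19111196, minus strand) and Tle4 (14448150 to 14598051, minus strand) are both on chromosome 19, and Etv1 (38779380 to 38870484, plus strand) and Bcl11b (107910403 to 108003602, minus strand) are both on chromosome 12. Tbr1 is on chromosome 2 (61802930 to 61814114, plus strand), Foxp2 on chromosome 6 (14901349 to 15441977, plus strand) and Fezf2 on chromosome 14 (12342094 to 12348189, minus strand). An antisense gene, Gm16599, shares 1.97% of the exon bases of Cux1 and was not listed in the table, and no annotated gene shares exon bases with the other 8. Whether reads were counted by strand is not given in the sources used here.

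The promoters of Cux1 and Rorb, whose vehicle groups were apart, and of Bcl11b and Tle4, as genes of layers 5 and 6, are shown here. Each runs from 250 bases before to 50 bases after a RefSeq start site (GRCm38.p6), 5′ to 3′ on the strand of the gene. Of the 9 genes, 8 had a promoter in the reference used, and of the 2 starts listed for Rorb and for Tle4 the one nearer to the annotated gene start is given. Capitals mark matches, on either strand, to any of 10 short motifs. General promoter elements searched for were the TATA box, spelled TATAAA, the CCAAT box, the GC box of Sp factors, spelled GGGCGG, and an E-box, spelled CACGTG. For the families of the layer genes themselves, the forkhead motif was spelled TGTTTAC. The half-site of ROR receptors was AGGTCA, and homeodomain factors had TAATTA. For Cut-type homeodomains the letters were ATCGAT, for ETS factors CCGGAAG, and for T-box factors GGTGTGA.
Cux1 (chr5:136565932-136566231, minus strand): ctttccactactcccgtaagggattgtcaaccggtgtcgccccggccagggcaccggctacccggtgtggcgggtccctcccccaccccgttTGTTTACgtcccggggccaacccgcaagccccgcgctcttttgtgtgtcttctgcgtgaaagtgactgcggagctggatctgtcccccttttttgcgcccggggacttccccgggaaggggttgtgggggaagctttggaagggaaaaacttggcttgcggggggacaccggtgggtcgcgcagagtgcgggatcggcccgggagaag
Rorb (chr19:19111147-19111446, minus strand): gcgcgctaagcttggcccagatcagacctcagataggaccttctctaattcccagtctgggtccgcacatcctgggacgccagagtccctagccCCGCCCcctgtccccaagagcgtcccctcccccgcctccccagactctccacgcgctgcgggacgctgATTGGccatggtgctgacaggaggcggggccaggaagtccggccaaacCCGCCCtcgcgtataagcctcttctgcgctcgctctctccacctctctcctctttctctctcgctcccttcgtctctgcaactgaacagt
Bcl11b (chr12:108003365-108003664, minus strand): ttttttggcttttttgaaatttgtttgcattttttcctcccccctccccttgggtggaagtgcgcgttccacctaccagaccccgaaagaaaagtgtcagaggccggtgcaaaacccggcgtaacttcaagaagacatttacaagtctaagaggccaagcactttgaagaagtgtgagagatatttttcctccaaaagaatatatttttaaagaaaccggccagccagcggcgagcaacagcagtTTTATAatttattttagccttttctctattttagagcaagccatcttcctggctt
Tle4 (chr19:14598134-14598433, minus strand): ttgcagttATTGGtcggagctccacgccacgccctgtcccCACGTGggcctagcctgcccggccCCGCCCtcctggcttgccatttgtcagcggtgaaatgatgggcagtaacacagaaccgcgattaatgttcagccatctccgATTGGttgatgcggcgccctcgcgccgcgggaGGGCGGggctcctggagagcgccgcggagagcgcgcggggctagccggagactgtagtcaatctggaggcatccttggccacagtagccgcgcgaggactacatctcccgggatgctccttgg

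The capitals in Cux1 are a single forkhead motif, which 3.65% of all 32851 promoters of this length held. Rorb held GGGCGG in 2 places (35.7% of all promoters) and CCAAT (37.4%). Bcl11b held TATAAA on its opposite strand (13.6%). Tle4 held CCAAT and GGGCGG in 2 places each and CACGTG once (7.15%). AGGTCA, found in 16.3% of all promoters, was in no promoter of the 8 genes. None of the motifs was in all 4 promoters, while Rorb and Tle4 both held CCAAT and GGGCGG. The GC content was 65.0% in Cux1, 63.7% in Rorb, 43.0% in Bcl11b and 65.0% in Tle4, against a median of 52.7% over all promoters. These matches describe letters only.

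Levels of the genes were compared per kilobase of exon, since longer genes collect more reads. Tbr1, the T-box factor of layer 6 corticothalamic neurons, was highest with 1336 ± 118.9 normalized counts per kb (SD, n = 12), and Cux2, a homeodomain factor of the upper layers, followed with 725.8 ± 57.2. These 2 genes did not overlap with each other or with the next gene in any mouse. Fezf2 (470.9 ± 74.2), Tle4 (435.3 ± 45.3) and Bcl11b (432.9 ± 58.4 per kb) overlapped, and Tle4 was above Bcl11b in 6 of 12 mice. Etv1 (247.5 ± 38.8), Cux1 (233.6 ± 19.2) and Rorb (211.3 ± 19.8 per kb) had lower means and overlapped with each other. The range of Etv1 (211.7 to 354.6) also reached those of Bcl11b (332.0 to 523.9) and Tle4 (352.1 to 497.3). Bcl11b was above Etv1 in 12 of 12 mice. Foxp2 was lowest at 46.6 ± 9.77 per kb and did not overlap with Rorb. Per kilobase of the longest transcript instead, the ranges of Cux2 (720.7 to 929.6) and Fezf2 (471.5 to 735.8) overlapped, while Cux2 was higher in 12 of 12 mice, and those of Cux1 and Rorb did not overlap. The order of Etv1 and Bcl11b also depends on this choice, because the longest transcript of Etv1 has 6576 bases while all its exons together have 13296.

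**Figure D1:**
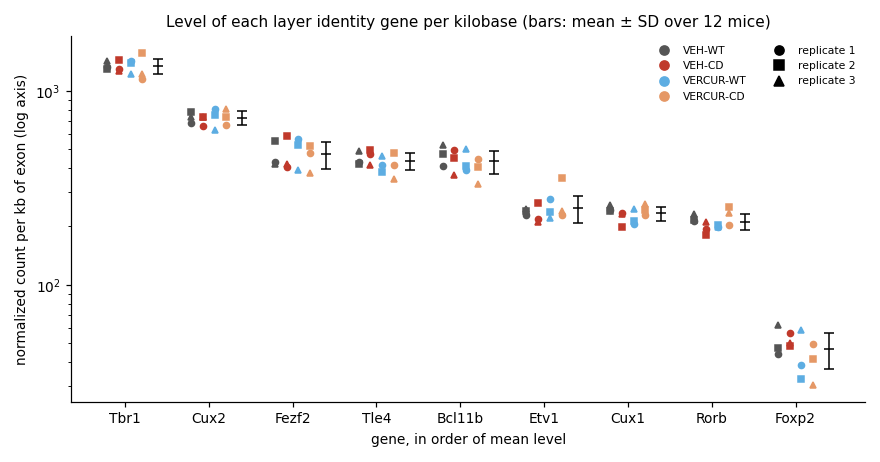
Normalized counts per kilobase of the union of exons for each gene and mouse (log axis), with colours for the 4 groups, symbols for the replicate number and bars for the mean ± SD over 12 mice. Tbr1 (1336 per kb) and Cux2 (725.8 per kb) lie above the other genes and Foxp2 (46.6 per kb) below them, while the 4 groups of each gene lie close together.

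Among the upper layer genes, Cux1 and Rorb were lower in every VEH-CD mouse than in every VEH-WT mouse. Cux1, a Cut-type homeodomain factor that shapes the dendrites of upper layer neurons, had 4885, 4793 and 5164 normalized counts in VEH-WT mice and 4692, 3957 and 4647 in VEH-CD. Rorb, a nuclear receptor of layer 4 neurons, had 2361, 2399 and 2581 in VEH-WT and 2150, 1989 and 2332 in VEH-CD. VEH-CD 2 was the lowest of all 12 mice for both genes.

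The log2 fold change between vehicle groups was -0.16 ± 0.08 (SE, 95% interval -0.34 to 0.02) for Cux1 and -0.18 ± 0.08 (-0.36 to -0.005) for Rorb, with adjusted p = 0.468 and adjusted p = 0.410 in limma. Neither gene was a DEG. The fold changes were 0.894 and 0.880. Of all genes tested, 11.4% lay lower in every VEH-CD mouse without overlap and 9.28% lay higher, beside 2 and none of the 9 layer genes. Cux2, the paralog of Cux1, overlapped between the groups, with 6851 to 7824 normalized counts in VEH-WT mice and 6647 to 7415 in VEH-CD. Its log2 fold change was -0.04 (95% interval -0.25 to 0.17).

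In co-treated mice the means of the same pair of genes were higher in CD than in WT. Cux1 had 4133, 4286 and 4910 normalized counts in VERCUR-WT and 4607, 4865 and 5197 in VERCUR-CD. Rorb had 2211, 2250 and 2206 in VERCUR-WT and 2241, 2782 and 2583 in VERCUR-CD. Both genotypes overlapped for each gene, with 2 of 3 VERCUR-CD mice inside the VERCUR-WT range of Cux1 and 1 inside that of Rorb.

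In VERCUR-CD against VERCUR-WT the log2 fold change was 0.14 (95% interval -0.04 to 0.32) for Cux1 and 0.18 (0.006 to 0.36) for Rorb, with adjusted p = 1.00 for both in limma. Against VEH-CD, VERCUR-CD mice differed by 0.14 (-0.04 to 0.32) in Cux1 and by 0.23 (0.05 to 0.41) in Rorb, again with overlapping groups and an adjusted p of 0.867 for both. VERCUR-WT mice differed from VEH-WT by -0.16 (-0.34 to 0.02) in Cux1 and -0.14 (-0.32 to 0.04) in Rorb, and the WT groups of Rorb did not overlap, as for 5.25% of all genes on the lower side. These comparisons share groups, so they are not independent of each other.

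The difference between the genotype effects with and without co-treatment was tested as an interaction. It was 0.37 ± 0.12 (95% interval 0.12 to 0.62) on the log2 scale for Rorb, with unadjusted p = 0.00777, and 0.30 ± 0.12 (0.05 to 0.56) for Cux1, with unadjusted p = 0.0231. Neither passed after correction in limma (adjusted p = 0.816 for both), and 6.05% of all genes had an unadjusted p under 0.05 in the interaction. Over both treatments, CD against WT was close to 0 for the 3 upper layer genes (log2 fold changes from -0.011 to 0.000).

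**Figure D2:**
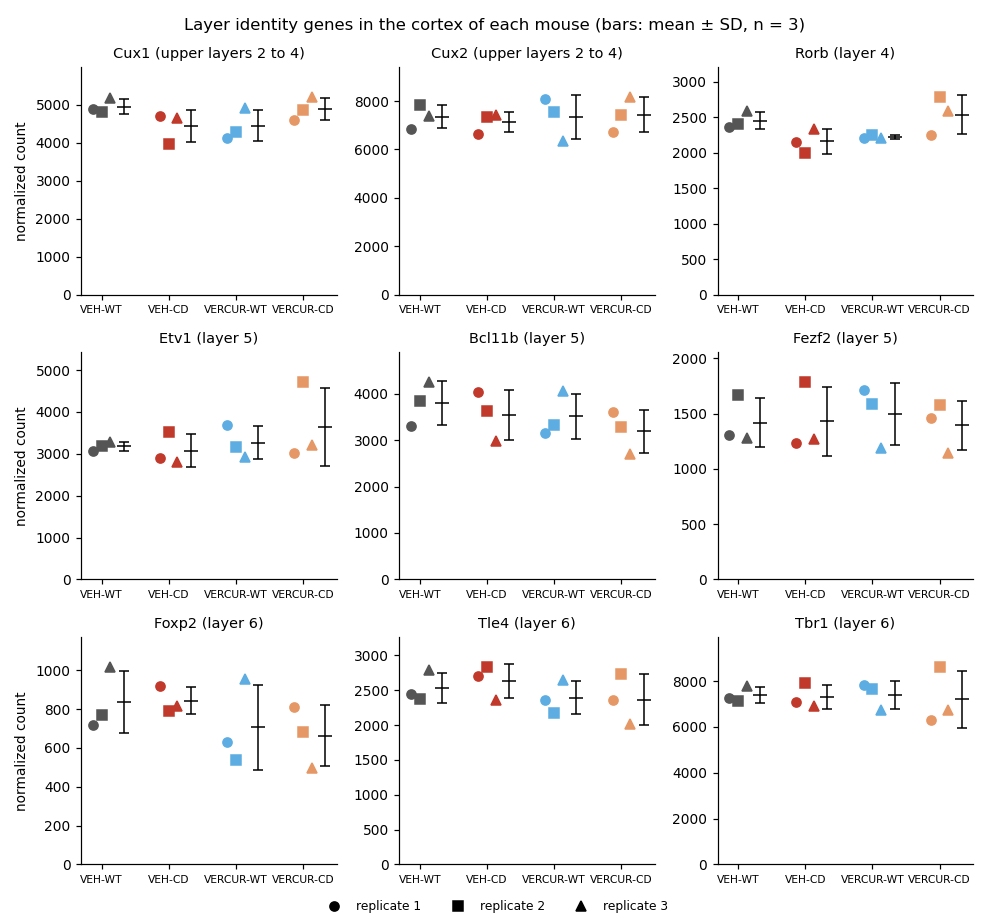
Normalized counts of the 9 genes in each mouse, on axes that start at 0, with symbols for the replicate number and bars for the mean ± SD of 3 mice per group. Cux1 and Rorb of VEH-CD lie below VEH-WT (4432 against 4947 and 2157 against 2447 in the means), and Foxp2 has a high mouse in each group.

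The layer 5 genes overlapped between genotypes under both treatments. Etv1, an ETS factor, had 3061 to 3285 normalized counts in VEH-WT mice, 2815 to 3529 in VEH-CD, 2923 to 3695 in VERCUR-WT and 3028 to 4715 in VERCUR-CD. VERCUR-CD 2 was the highest of all mice, and without it the log2 fold change of VERCUR-CD against VEH-CD went from 0.22 to 0.023. Fezf2, the zinc finger factor that specifies neurons projecting to the spinal cord, had 1277 to 1673 in VEH-WT, 1231 to 1787 in VEH-CD, 1186 to 1714 in VERCUR-WT and 1145 to 1580 in VERCUR-CD. Its spread within groups, with a CV of 15.6% to 21.7%, was wider than the difference between any 2 group means.

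Bcl11b, known as CTIP2, is needed by the same subcerebral neurons and is also expressed by the projection neurons of the striatum. It had 3309, 3844 and 4249 normalized counts in VEH-WT mice, 4034, 3632 and 2971 in VEH-CD, 3161, 3313 and 4054 in VERCUR-WT and 3600, 3273 and 2693 in VERCUR-CD. All 4 groups overlapped. Its log2 fold change was -0.10 (95% interval -0.41 to 0.20) in VEH-CD against VEH-WT, -0.14 (-0.44 to 0.16) in VERCUR-CD against VERCUR-WT and -0.26 (-0.56 to 0.05) in VERCUR-CD against VEH-WT. That of Fezf2 in VEH-CD against VEH-WT was 0.001 (-0.38 to 0.39) and that of Etv1 was -0.05 (-0.37 to 0.27).

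Of the layer 6 genes, Foxp2 varied most. Foxp2, a forkhead factor that is also strongly expressed in striatal neurons and whose human counterpart is linked to speech, had 716.2, 771.3 and 1017 normalized counts in VEH-WT mice and 920.9, 790.3 and 815.8 in VEH-CD. It had 627.9, 537.2 and 953.9 in VERCUR-WT and 808.8, 680.8 and 496.6 in VERCUR-CD. The groups overlapped, and 4 of the 6 co-treated mice were below every vehicle mouse. The CV within VERCUR-WT was 31.0%, a value above the highest group CV of 83.2% of the genes tested.

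Over both genotypes, VERCUR against VEH gave a log2 fold change of -0.32 ± 0.15 (95% interval -0.65 to 0.007) for Foxp2, with unadjusted p = 0.0541 and adjusted p = 1.00 in limma. It was -0.37 (-0.83 to 0.09) within CD mice and -0.27 (-0.73 to 0.19) within WT mice. Between the genotypes it was 0.027 (-0.44 to 0.49) in VEH-CD against VEH-WT. The interval of Foxp2 was the widest of the 9 genes in these comparisons. In fold terms the vehicle comparison allowed 0.740 to 1.40 for Foxp2.

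Tle4, a Groucho-type co-repressor of layer 6 corticothalamic neurons, had 2439, 2379 and 2785 normalized counts in VEH-WT mice, 2709, 2835 and 2366 in VEH-CD, 2363, 2170 and 2643 in VERCUR-WT and 2358, 2730 and 2008 in VERCUR-CD. The groups overlapped throughout. The log2 fold change was -0.12 (95% interval -0.30 to 0.05) for VERCUR against VEH over both genotypes and 0.06 (-0.19 to 0.31) for VEH-CD against VEH-WT. Tbr1, which drives the layer 6 program and represses Fezf2, had 7137 to 7798 in VEH-WT, 6900 to 7906 in VEH-CD, 6719 to 7823 in VERCUR-WT and 6284 to 8621 in VERCUR-CD. Its log2 fold change was -0.02 (-0.25 to 0.21) in VEH-CD against VEH-WT and -0.03 (-0.26 to 0.20) in VERCUR-CD against VEH-CD.

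**Figure D3:**
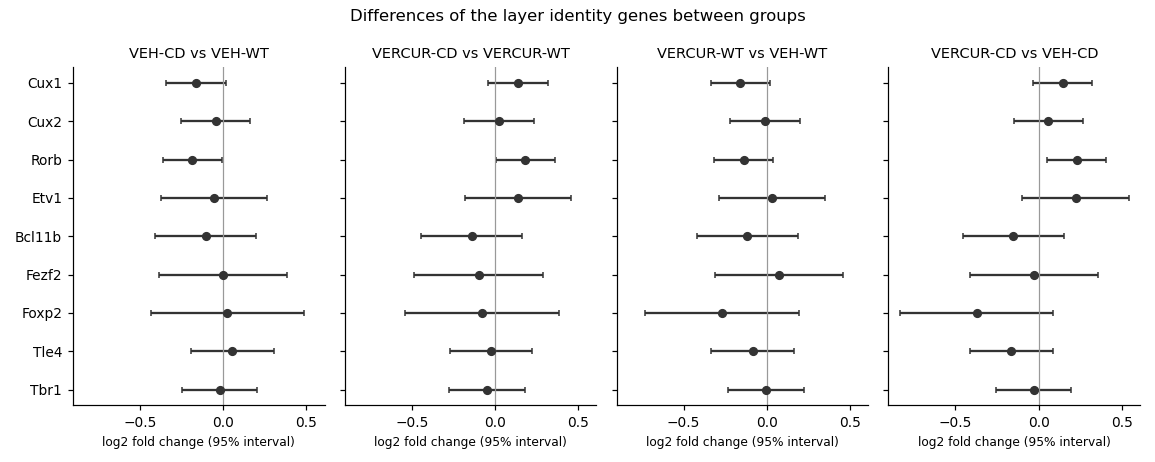
Log2 fold changes of the 9 genes, with 95% intervals from limma (n = 3 mice per group), in 4 comparisons. Most intervals include 0. Those of Rorb do not in VEH-CD against VEH-WT (-0.36 to -0.005), VERCUR-CD against VERCUR-WT (0.006 to 0.36) and VERCUR-CD against VEH-CD (0.05 to 0.41), none of which passed after adjustment.

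Taking the 9 genes as a list, the median log2 fold change was -0.043 in VEH-CD against VEH-WT, with 6 genes lower and 3 higher, beside a median of -0.003 over all genes tested. It was -0.023 in VERCUR-CD against VERCUR-WT, -0.084 in VERCUR-WT against VEH-WT and -0.027 in VERCUR-CD against VEH-CD, beside 0.004, -0.001 and 0.003 over all genes. Counting genes whose groups did not overlap, 1 of 9 lay lower in VERCUR-WT than in VEH-WT and none lay higher, where 5.25% of all genes lay lower and 4.48% higher. None of the 9 did in VERCUR-CD against VERCUR-WT (3.91% of all genes higher and 3.83% lower), in VERCUR-CD against VEH-CD (3.71% and 4.63%) or in VERCUR-CD against VEH-WT (6.56% and 7.33%). Over 6 mice a side, none did in CD against WT (0.573% and 0.473%) or in VERCUR against VEH (0.0526% and 0.0234%).

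The balance of upper and deep layer genes was described for each mouse as the mean log2 level of Cux1, Cux2 and Rorb minus that of the 6 others. It was 0.820 ± 0.049 (SD, n = 3) in VEH-WT, 0.705 ± 0.206 in VEH-CD, 0.779 ± 0.073 in VERCUR-WT and 0.937 ± 0.272 in VERCUR-CD. The groups overlapped. VEH-CD 2 was lowest of all mice at 0.507 and VERCUR-CD 3 was the highest, with the other 2 VERCUR-CD mice at 0.778 and 0.782.

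The striatal markers differed between mice and were set beside the layer genes. The 9 markers (Drd1, Drd2, Adora2a, Ppp1r1b, Rgs9, Gpr6, Penk, Tac1 and Pde10a) summed to 19909, 20412 and 38916 normalized counts in VEH-WT mice, 42088, 19419 and 20776 in VEH-CD, 10845, 11327 and 44908 in VERCUR-WT and 33195, 11113 and 11375 in VERCUR-CD. In each group 1 mouse stood above the other 2, namely replicate 3 of both WT groups and replicate 1 of both CD groups. The remaining 4 co-treated mice were lower than the remaining 4 vehicle mice, and the median log2 fold change of the markers in VERCUR against VEH was -0.569, with none past the adjusted threshold in limma and 1 of 9 at an unadjusted p under 0.05. No marker was at 0 in any mouse, and Drd2, the D2 dopamine receptor of striatal neurons, ranged from 49.1 to 1671. Markers of oligodendrocytes, the myelinating cells, were highest in the same mouse of each group, and their sum ranged from 74950 to 215106.

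Foxp2 and Bcl11b were highest in those same mice in 4 of 4 groups, Cux1 in 3, Tle4 in 2, Rorb, Etv1 and Tbr1 in 1 each and Cux2 and Fezf2 in none. How many of all genes tested were highest in those mice was not counted, so this does not set the 9 genes apart. Without these 4 mice, the log2 fold change of VERCUR against VEH over both genotypes was -0.41 for Foxp2, -0.14 for Bcl11b and -0.12 for Tle4, and no gene of the 9 was a DEG. In the mice left, marker sums were 19419 to 20776 with vehicle and 10845 to 11375 with co-treatment. Treatment and striatal level therefore could not be told apart in this refit. With the mean log2 level of the striatal markers as a covariate, the same fold changes were -0.085, 0.000 and -0.065. Both refits were chosen after the data were seen. For Rorb and Cux1, the interaction was 0.41 and 0.43 without these mice and 0.36 and 0.31 with the covariate. The part of striatal tissue or white matter in the layer gene values was not tested.

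**Figure D4:**
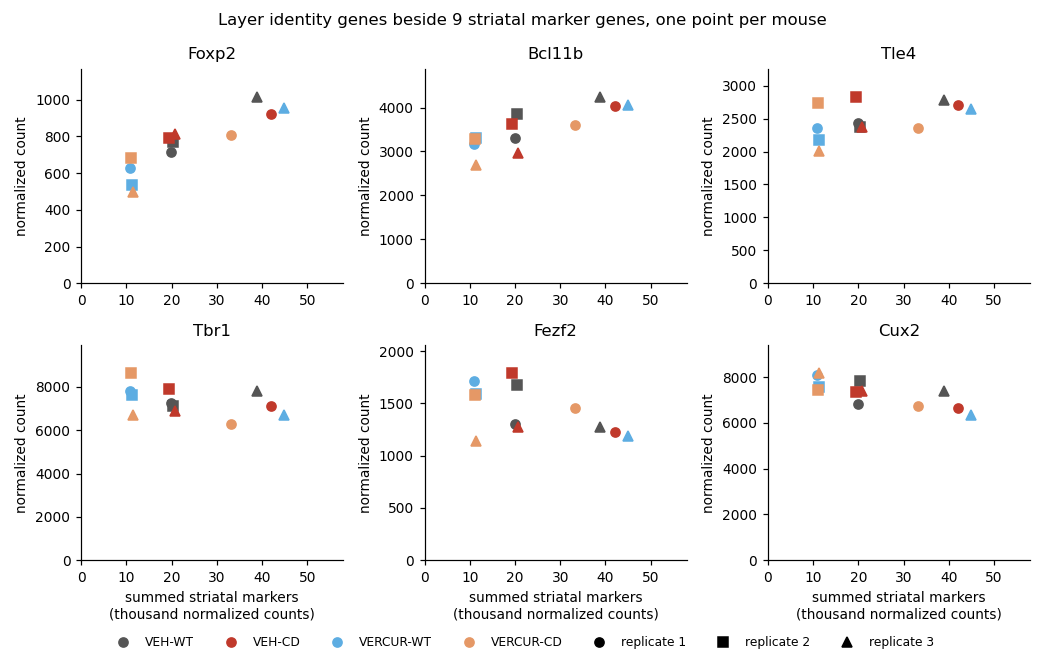
Normalized counts of 6 of the genes against the summed normalized counts of 9 striatal markers, with 1 point per mouse. Mice with 33195 marker counts or more, 1 in each group, are among the higher for Foxp2 and Bcl11b, and the 4 mice at 11375 or below, all co-treated, include the lowest of both (496.6 and 2693 in VERCUR-CD 3).

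The mice were then used to ask which layer genes rose and fell together. Among the 6 deep layer genes 11 of 15 pairs had a positive correlation (median r 0.27), and 7 of 18 pairs of an upper with a deep layer gene did (median r -0.15). Of all 36 pairs of genes, 5 had a Pearson correlation of log2 levels over the 12 mice with an adjusted p under 0.05 (permutation test with 100000 resamples, Benjamini-Hochberg over the 36 pairs), and none of the 36 passed by Spearman's rho as well. The matching shares over pairs of all genes tested were not computed, so these counts do not set the layer genes apart. Bcl11b and Foxp2 had r = 0.81 (permutation p = 0.00152, adjusted 0.0274) and rho = 0.73 (p = 0.00879, adjusted 0.0791). Foxp2 and Tle4 had r = 0.77 (permutation p = 0.00325, adjusted 0.0374) and rho = 0.59 (p = 0.0491, adjusted 0.196). Without the 4 mice highest in striatal markers these r were 0.56 and 0.72 over the other 8 mice.

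Across layers, Etv1 and Tbr1 had r = 0.80 (permutation p = 0.00081, adjusted 0.0274) and rho = 0.78 (p = 0.00428, adjusted 0.0791). Both were highest in VERCUR-CD 2, the mouse with the highest share of mitochondrial RNA (4.61%, against 3.09% to 4.26% in the others). Cux1, a gene of layers 2 to 4, and Rorb, a gene of layer 4, had r = 0.74 (permutation p = 0.00641, adjusted 0.0462) and rho = 0.63 (p = 0.0323, adjusted 0.190). Cux1 and Fezf2 ran in opposite directions, with r = -0.75 (permutation p = 0.00416, adjusted 0.0374) and rho = -0.73 (p = 0.00831, adjusted 0.0791). Without the 2 mice farthest from the median of the first gene, these 5 values were, in the order given, 0.62, 0.45, 0.63, 0.58 and -0.53. Unadjusted permutation p values were then 0.0503 to 0.188. Leaving out extreme mice narrows the range of a gene and tends to weaken r by itself. These values therefore do not settle whether a relation rests on 2 mice. As residuals from the group means, the 5 r were 0.82, 0.71, 0.96, 0.54 and -0.91 in the same order. Without the 4 mice highest in striatal markers, r was 0.87 for Etv1 with Tbr1, 0.85 for Cux1 with Rorb and -0.75 for Cux1 with Fezf2.

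**Figure D5:**
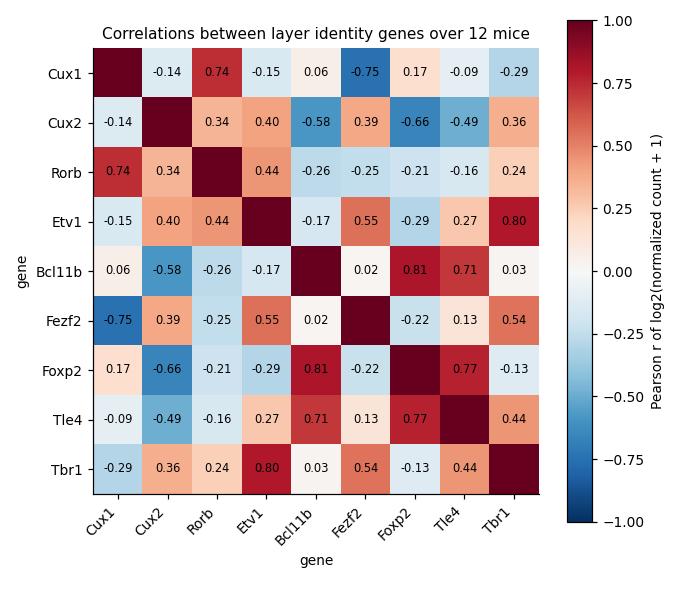
Pearson correlations of log2(normalized count + 1) between the 9 genes over 12 mice, in order of layer, with red for positive and blue for negative values. Bcl11b with Foxp2 (0.81) and Etv1 with Tbr1 (0.80) are the highest and Cux1 with Fezf2 (-0.75) the lowest of 36 pairs.

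The genes whose levels were most like each layer gene over the 12 mice were found among all genes tested, as a description. A search of 17111 genes over 12 mice gives some high r by itself, and these r were not tested. Foxp2 was closest to Syt6 (r = 0.988), a synaptotagmin of layer 6 neurons, and to Musk (0.937). Syt6 was highest in the same mouse of each group, with 1650 and 1559 normalized counts in replicate 3 of the vehicle and co-treated WT mice and 1421 and 1237 in replicate 1 of the vehicle and co-treated CD mice. The r of Foxp2 with Syt6 was 0.975 over the 8 mice left without the 4 highest in striatal markers. Fezf2 was closest to Cckbr (0.921), a cholecystokinin receptor, and Arhgap1 (0.917), and Bcl11b to Smpd3 (0.928) and Bcr (0.908). Etv1 was closest to Vps13a (0.980) and Rock2 (0.971), Tbr1 to Pphln1 (0.948) and Arl5a (0.936), and Tle4 to Prkar2b (0.927) and 2810429I04Rik (0.896). Of the upper layer genes, Rorb was closest to Ap3s2 (0.933) and Mybl1 (0.926), Cux2 to Lrrc4 (0.876) and Spats2l (0.857), and Cux1 to mt-Rnr1 (0.904), a ribosomal RNA of mitochondria, and Tspan11 (0.892).

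Other markers of the layers were also without a DEG in any comparison. Of 17 further upper layer genes, 12 were lower and 5 higher in VEH-CD than in VEH-WT, and the median log2 fold change was -0.185, beside -0.003 over all genes. In VERCUR-CD against VERCUR-WT, 10 were higher and 7 lower (median 0.034), and over both treatments the median in CD against WT was -0.019. The values that follow are for VEH-CD against VEH-WT. The highest of the 17 was Lmo4 (0.27, adjusted p = 0.276 in limma) and the lowest Cartpt, a neuropeptide precursor (-0.58, adjusted p = 0.438). Of 13 layer 5 genes the median was 0.025, between Crym (0.36) and the repressor Bcl6 (-0.42). Of 12 layer 6 and 6b genes it was -0.006, between Oprk1 (0.46) and Nxph4 (-0.27). Of 3 layer 1 genes the median was -0.117, with Trp73 highest at 0.35. Reln, the lowest of them and the secreted protein that guides layering, had 2200, 2223 and 2466 normalized counts in VEH-WT mice and 1955, 1831 and 1745 in VEH-CD (log2 fold change -0.32, adjusted p = 0.187).

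In VERCUR against VEH over both genotypes, 5 of the 12 layer 6 and 6b genes were lower at an unadjusted p under 0.05, where 2.96% of all genes passed in either direction, and none after adjustment (adjusted p = 1.00 in limma). Ctgf, a marker of layer 6b, was lowest at -0.55 (95% interval -0.85 to -0.25) and Nxph4 followed at -0.54 (-0.83 to -0.25). Ctgf had 960.6, 1276 and 1297 normalized counts in VEH-WT mice and 949.5, 997.8 and 961.9 in VEH-CD, against 726.4, 542.8 and 953.0 in VERCUR-WT and 900.4, 748.2 and 572.6 in VERCUR-CD. The summed level of this list was highest, in each group, in the mouse with the most striatal marker counts. The same was true of the layer 5, interneuron and oligodendrocyte lists. The part of striatal tissue in the layer 6 values was not tested.

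Regulators that act beside the 9 genes in projection neurons held the only listed gene with an adjusted p under 0.05. In that comparison, CD against WT over both treatments, 65 of the 17111 genes tested had an adjusted p under 0.05 in limma. Nr2f1, also COUP-TFI, a nuclear receptor that patterns cortical areas, had 4396, 3815 and 3906 normalized counts in VEH-WT mice and 5619, 5174 and 5637 in VEH-CD, so the vehicle groups did not overlap. It had 4991, 5002 and 4279 in VERCUR-WT and 4930, 5360 and 5716 in VERCUR-CD, which overlapped. Over both treatments its log2 fold change in CD against WT was 0.30 ± 0.06 (adjusted p = 0.0457 in limma), a fold change of 1.23 that is under the threshold for a DEG. The adjusted p was under 0.05 in 2 of 12 limma fits that each left out 1 mouse, those without VEH-WT 1 or VERCUR-CD 1, and reached 0.171 without VEH-CD 3. It was 0.0908 with a replicate block, 0.0164 with the striatal covariate and 0.414 without the 4 mice highest in striatal markers. Without these mice the log2 fold change was 0.27. Of 25 alternative fits, the leave-one-out fits included, 12 gave an adjusted p under 0.05. In the vehicle groups the log2 fold change was 0.44 ± 0.08 (adjusted p = 0.0513 in limma). Neurog2, a proneural factor, was the lowest of these 22 regulators at -0.67 (adjusted p = 0.234 in limma) and is scarce, with 16.8 to 39.8 normalized counts. The median of the regulators was -0.057, with 8 higher and 14 lower.

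Among 12 paralogs of the layer genes the median log2 fold change in VEH-CD against VEH-WT was 0.016. Rora, the paralog of Rorb, was the lowest at -0.285 (95% interval -0.55 to -0.02, adjusted p = 0.378 in limma), with 3300, 3197 and 3724 normalized counts in VEH-WT mice and 2853, 2606 and 2919 in VEH-CD. As with Rorb, its vehicle groups did not overlap. Rora had 2859, 2872 and 3162 in VERCUR-WT and 2852, 4305 and 3345 in VERCUR-CD, and VERCUR-CD 2 was the highest mouse for both receptors. Tle6 was the highest of the paralogs at 0.30 (0.006 to 0.59, adjusted p = 0.415).

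The other cell types of the tissue were described in the same way. In VEH-CD against VEH-WT the median log2 fold change was 0.026 for 5 markers of excitatory neurons, -0.186 for 8 of interneurons, 0.008 for 9 of striatal neurons, -0.148 for 6 of the thalamus and -0.249 for 4 of the hippocampus. It was 0.052 for 4 markers of the olfactory bulb, 0.070 for 3 of the claustrum and piriform cortex, -0.161 for 4 of the choroid plexus, -0.156 for 6 of oligodendrocytes and 0.020 for 2 of their precursors. For astrocytes (6 genes), microglia (6 genes) and endothelial cells (5 genes) it was -0.031, 0.068 and 0.008. All 8 interneuron markers were below 0, from Sst (-0.077), the somatostatin precursor, to Lhx6 (-0.28), a factor of interneurons from the medial ganglionic eminence. At an unadjusted p under 0.05, 3 of the 8 passed, beside 11.8% of all genes in either direction. None passed after adjustment (smallest adjusted p = 0.157 in limma). In VERCUR-CD against VERCUR-WT their median was -0.054, with 6 lower and 2 higher.

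Immediate early genes, which neurons switch on within minutes of firing, had a median log2 fold change of -1.15 in VEH-CD against VEH-WT, and 7 of 10 were lower at an unadjusted p under 0.05, which 11.8% of all genes passed in either direction, from Ier2 (-0.76) to Egr2 (-2.37). None passed after adjustment (smallest adjusted p = 0.105 in limma). Their summed level was 57084 to 95492 normalized counts in VEH-WT mice and 16364 to 38167 in VEH-CD, without overlap. In co-treated mice it was 27601 to 54496 in VERCUR-WT and 29601 to 49361 in VERCUR-CD, which overlapped. The part of this difference in the values of Cux1 and Rorb was not tested.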

How the data were processed

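RNA-seq of the cortex of 12 mice (3 per group) was analysed. Per the labels and the study's methods, the authors aligned reads to GRCm38 with STAR 2.5.3a. The counting program and the scaling are not given in the sources used here. The deposited values are normalized counts (unit other), with 1 factor per mouse. The value of 1 read was found for each mouse from its low values, of which 100% came out whole (within 0.1 reads), and gave the reads counted. The authors' tables of expression relative to VEH-WT were not used. In R 4.3.3, limma 3.58.1 was applied to log2(normalized count + 1), which slightly understates changes of low genes, with 4 group means, all 12 mice and an intensity trend, for the 17111 genes with a mean of at least 10. The fit was checked on simulated data. Groups came from the labels and columns from the names shared with them. Alternatives were pseudocounts of 0.1 and 5, no filter or a mean of 50, other scalings, sample weights, a replicate block, removal of values at a CV of 20% and leaving out each mouse. No pairing of mice by replicate number was seen. Sequences are from RefSeq and positions from GENCODE M21, in which Tle4 has a later version number. The 9 genes and 20 marker lists were chosen with earlier results of these data known. A listed striatal gene is not reported here. Genes named are the 9, list genes that passed, the highest and lowest of each list in VEH-CD against VEH-WT, and the 2 genes most like each of the 9. Ctgf, Drd2 and Slc17a7 were named after their values were seen.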

Additional observations from a re-analysis of the deposited data

Results flagged for a closer look

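The balance of upper and deep layer genes (mean log2 level of Cux1, Cux2 and Rorb minus that of the 6 others) was between 0.717 and 0.859 in 5 co-treated mice and higher in VERCUR-CD 3. Its gap to the next mouse was 0.733 of the range of the 6 co-treated mice, above the critical value of 0.625 of Dixon's test, which chance exceeds in about 1 in 20 groups. This was the only one of 40 groups of 6 mice tested that exceeded it, and among the 6 CD mice the gap of the same mouse was 0.447 of the range. VERCUR-CD 3 was the lowest of all 12 mice for Bcl11b (2693 normalized counts), Fezf2 (1145), Foxp2 (496.6) and Tle4 (2008) and the highest for Cux1 (5197) and Cux2 (8166). None of the 9 genes alone met this criterion in the 6 mice of a genotype or a treatment.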

How the results depend on the processing

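None of the 9 genes became a DEG in any comparison under any alternative, and the smallest adjusted p was 0.0561 (Foxp2, VERCUR-WT against VEH-WT, log2 fold change -0.51, with values removed at a CV of 20%). Leaving out each mouse in turn gave Rorb -0.241 to -0.127 and Cux1 -0.206 to -0.083 in VEH-CD against VEH-WT, Rorb 0.298 to 0.454 and Cux1 0.223 to 0.377 in the interaction, and Foxp2 -0.439 to -0.224 in VERCUR against VEH. Values near 0 changed sign, and the cause was not tested. In VEH-CD against VEH-WT, Tbr1 was 0.012 with quantile normalization, Fezf2 -0.048 and Tle4 -0.013 with sample weights, and Fezf2 -0.170 with values removed. Without the 4 mice highest in striatal markers, Cux2 was 0.012, Etv1 0.013 and Tbr1 0.037. Leaving out each mouse in turn gave Cux2 -0.093 to 0.007, Etv1 -0.155 to 0.008, Bcl11b -0.203 to 0.018, Fezf2 -0.170 to 0.126, Foxp2 -0.075 to 0.177 and Tbr1 -0.078 to 0.020. In VERCUR-CD against VEH-CD, Fezf2 was 0.144 with values removed, Tbr1 0.044 without the 4 mice and Cux2 -0.048 with the striatal covariate, with which Bcl11b was 0.000 in VERCUR against VEH, just past a change of sign. Each mouse left out gave Cux2 -0.011 to 0.127, Fezf2 -0.125 to 0.144 and Tbr1 -0.166 to 0.062. The median over the 9 genes, with each mouse left out, was -0.113 to 0.090 in VERCUR-CD against VERCUR-WT, -0.124 to 0.065 in VERCUR-CD against VEH-CD, -0.123 to 0.024 in VERCUR-CD against VEH-WT and -0.067 to 0.081 in the interaction. Per kilobase of the longest transcript, levels were 1842 for Tbr1, 833.1 for Cux2, 590.8 for Fezf2, 546.1 for Tle4, 500.4 for Etv1, 363.7 for Cux1, 251.9 for Rorb and 112.6 for Foxp2, since this length is shorter, and Etv1 then lay above Bcl11b.

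Over all genes, the DEGs in VEH-CD against VEH-WT went from 44 to 349 with sample weights and 972 with values removed, and those in VERCUR-CD against VERCUR-WT from 25 to 46 and 448. In VERCUR-CD against VEH-CD they went from 0 to 6 and 241, in VERCUR-CD against VEH-WT from 34 to 140 and 840, and in CD against WT from 55 to 182 and 837. In VERCUR against VEH they went from 0 to 1 and 442, and with values removed from 0 to 649 in VERCUR-WT against VEH-WT and from 0 to 492 in the interaction. Removing the farthest value of a group lowers its spread by construction. Without the 4 mice highest in striatal markers there were 16 in VEH-CD against VEH-WT, 29 in CD against WT, 12 in VERCUR-CD against VEH-CD, 13 in VERCUR-WT against VEH-WT and 23 in VERCUR against VEH. The vehicle and co-treated mice left differed in striatal marker level, which could not be told apart from treatment in the comparisons of co-treated with vehicle mice.

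A replicate block left 0 of the 9 genes as DEGs, with an adjusted p of 0.369 for Cux1 and 0.389 for Rorb in VEH-CD against VEH-WT, and 40 DEGs over all genes in place of 44. It took the adjusted p of Nr2f1 in CD against WT to 0.0908. Same-numbered mice deviated from their group means with correlations of -0.347 to 0.267 (18 pairs, 4 above 0.1). The 36 other pairs had -0.235 to 0.325. No pairing by number was seen, but with 3 mice per group this check cannot exclude one. The edgeR fits with TMM and with the deposited scaling, and the DESeq2 fit, all on recovered reads, were not run. Their reads could be derived from the low values, but the table was handled here as normalized values. The reads behind each gene (at least 516, for Foxp2) were many, and the 3 mice per group limit what can be detected.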
